A study of Homo sapiens with 2 samples.

Results

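The long arm of chromosome 1 carried 568 of the 9393 genomic sites at which the active YAP mutant YAP-5SA was found in MCF10A cells, or 6.05% of the list. The members were all peaks of chromosome 1 whose summit lay at or above position 144000000 in the human build hg19. The rule uses position alone and no height or width. They were compared with the 441 peaks of the same chromosome below that position, which all lie on the short arm, and with the 8384 peaks of the other chromosomes. Of the 1009 peaks of chromosome 1, the long arm held 56.3%.

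MCF10A is an established, non-transformed line of human mammary epithelial cells; one field of the labels calls it a breast cancer line. The cells expressed Flag-tagged YAP-5SA, were grown in medium with horse serum, EGF, insulin, hydrocortisone and cholera toxin, and were fixed with formaldehyde. Chromatin was sheared, immunoprecipitated with Flag-M2 beads and sequenced in 1 ChIP library, next to 1 library of input DNA from MCF10A cells. The input, for which no processed file was analysed here, was not immunoprecipitated, and no ChIP from cells without the Flag tag was analysed here. The Flag antibody sees the introduced mutant and not the cells' own YAP.

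YAP is a transcriptional co-activator that has no DNA-binding domain of its own and reaches DNA mainly through the TEAD transcription factors. The Hippo kinases LATS1 and LATS2 phosphorylate YAP on serines, which keeps it out of the nucleus. The 5SA form has these serines replaced by alanine and so escapes this control. In epithelial cells YAP is known to bind mostly at enhancers far from gene starts, often beside AP-1 factors, and to drive genes of growth, adhesion and matrix.

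As background, the long arm carries several gene groups of interest in breast epithelium. In their order along the chromosome in RefSeq's GRCh38 annotation, they include the survival gene MCL1, the epidermal genes FLG, IVL and S100A2, and the nuclear lamina gene LMNA. The laminin chain gene LAMC1 and the prostaglandin synthase gene PTGS2 follow, then the antiproliferative gene BTG2, the p53 inhibitor gene MDM4 and the laminin gene LAMB3. Beyond them lie ATF3, a stress-response transcription factor, PTPN14, a phosphatase that holds YAP back, CENPF, a kinetochore protein, and TGFB2, a growth factor. The peaks are in hg19 and this annotation is in GRCh38, so peaks were not matched to genes and are given by their hg19 positions. No DNA sequence of a peak is shown for the same reason.

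Each peak has a height, the score that the authors gave at its summit. The unit of this score is not given in the sources used here, so heights are compared only among the peaks of the list. Read depth is unknown. There was no replicate, so no p-value is given and nothing below measures the spread between cultures. Values in brackets after a share, ratio, median or difference are 95% intervals that treat peaks as independent and cover counting error only. Counts per megabase varied more than independent peaks would, so the intervals of the density ratios are likely too narrow. The same holds for shares of peaks with a near neighbour or in a group, since close peaks count for each other. Neither number nor height was corrected for DNA copy number.

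The boundary fell in a long empty stretch. The last peak of the short arm had its summit at 120085184, with a height of 32. The first peak of the long arm had its summit at 144008320, with a height of 25. No summit lay in the 23.9 Mb between them, so any boundary inside this stretch gives the same 568 members. The last member spanned 249115178 to 249115869 and reached a height of 45.

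The long arm was covered densely. Peaks lay at 5.40 per Mb over 105.1 Mb, against 3.69 per Mb on the short arm and 3.38 per Mb on the other chromosomes. The ratio was 1.46 (1.29 to 1.66) to the short arm and 1.60 (1.47 to 1.74) to the other chromosomes. When both arms of chromosome 1 were set beside the 22 other chromosomes, the long arm had the second highest density of the 24, after chromosome 20 with 5.69 per Mb. The other chromosomes were not cut into arms, and a part can be more extreme than a whole. Ranks among these 24 thus compare unlike units. Peak intervals covered 392.1 kb of the long arm, or 0.373% of its length, against 0.239% of the short arm and 0.216% of the other chromosomes.

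Windows of 5 Mb were laid from the boundary on the long arm and from the start of the chromosome on the short arm. The 21 complete windows of the long arm held from 15 to 37 peaks, with a median of 29. On the short arm, 24 such windows held from 5 to 30 peaks, with a median of 19. Fewer than 15 peaks were found in 0 of the 21 windows of the long arm and in 8 of the 24 of the short arm. Since 15 was the lowest count of the long arm, its 0 follows from this limit. At least 25 peaks were found in 12 of the 21 and in 6 of the 24. The fullest windows of the long arm ran from 204 to 209 Mb with 37 peaks, from 149 to 154 Mb and from 214 to 219 Mb with 36 each, from 199 to 204 Mb with 35 and from 179 to 184 Mb with 34. The sparsest was the first, which ends at 149 Mb, with 15 peaks. The windows that start at 189, 219 and 244 Mb had 19 each, and those that start at 154, 164 and 194 Mb had 22 each.

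**Figure D1:**
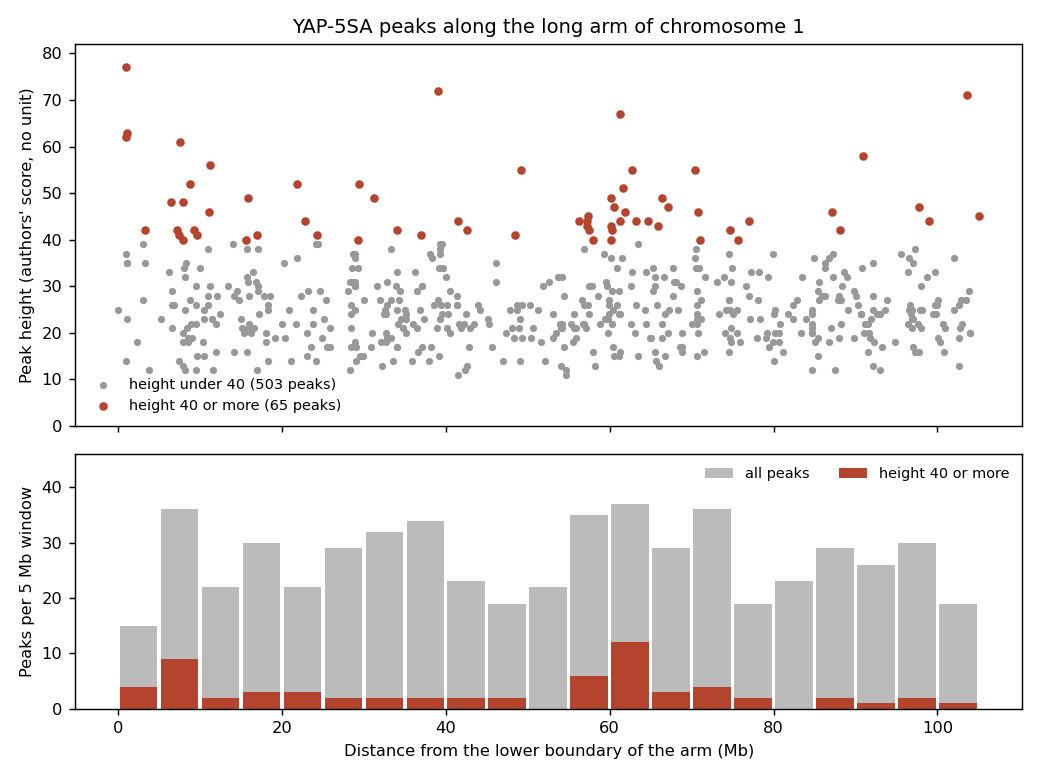
Height of each of the 568 peaks (upper panel, the authors' score without unit) and number of peaks in the 21 complete windows of 5 Mb (lower panel), both against distance from the lower boundary of the arm in Mb; red marks the 65 peaks of height 40 or more. Windows hold between 15 and 37 peaks, and the red peaks are most numerous in the window with 37 peaks, where there are 12.

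The arms differed in their long gaps. A distance of over 1 Mb between neighbouring summits occurred 7 times on the long arm, among 567 gaps, and 31 times on the short arm, among 440. These gaps made up 9.18% of the length of the long arm and 36.2% of the short arm. Their share of all gaps was 1.23% and 7.05%, a difference of -5.81 percentage points (-8.66 to -3.40). The 9.18% was the lowest among the 24 arms and chromosomes, where gaps over 5 Mb were left out. Chromosome 20 followed at 17.6%, from 6 gaps, chromosome 21 had 21.7%, and chromosome X had 73.4%. Where peaks are denser, long gaps are fewer by construction, and the part of density in this difference was not tested.

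The longest gap of the long arm ran from 169.9 to 172.0 Mb, a distance of 2.11 Mb. It was followed directly by the fullest single megabase of the arm, from 172 to 173 Mb. The next gaps were 1.43 Mb long, ending at 217.1 Mb, and 1.42 Mb, ending at 149.2 Mb. A gap of 1.23 Mb ended at 146.3 Mb and one of 1.20 Mb at 249.1 Mb, just before the last member. On the short arm 4 gaps were over 2 Mb long, the longest being 2.40 Mb, so that gaps of this length differed in share by -0.73 points (-2.14 to 0.25), an interval that includes 0. In single megabases, 6 of 105 were without a peak on the long arm and 13 of 120 on the short arm. The empty ones of the long arm start at 148, 170, 171, 213, 216 and 248 Mb. The variance of the counts per megabase was 2.14 times their mean on the long arm and 2.86 times on the short arm. Independently placed peaks would have a variance near the mean, which the intervals of the density ratios assume.

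At short distances the arms of chromosome 1 did not differ beyond counting error. The distance between neighbouring summits had a median of 104.1 kb on the long arm, 121.7 kb on the short arm and 140.9 kb on the other chromosomes. On the long arm, 298 peaks had another summit within 50 kb, or 52.5% (48.4 to 56.5), against 47.8% of the whole list. The short arm had 51.5% (46.8 to 56.1), a difference of 0.99 points (-5.20 to 7.18). Within 10 kb the long arm had 22.9%, against 19.5% of the whole list, and the short arm 26.5%, a difference of -3.64 points (-9.05 to 1.69). Peaks with no other summit within 200 kb were 13.7% of the long arm, against 19.9% of the whole list, and 19.5% of the short arm, a difference of -5.77 points (-10.5 to -1.16). Against the other chromosomes, the share of long-arm peaks with a neighbour was higher by 5.22 points (0.97 to 9.43) within 50 kb and by 3.93 points (0.56 to 7.66) within 10 kb. Where peaks are denser, near neighbours are more frequent by construction. These shares were not corrected for density, so similar shares on the arms do not show similar clustering.

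**Figure D2:**
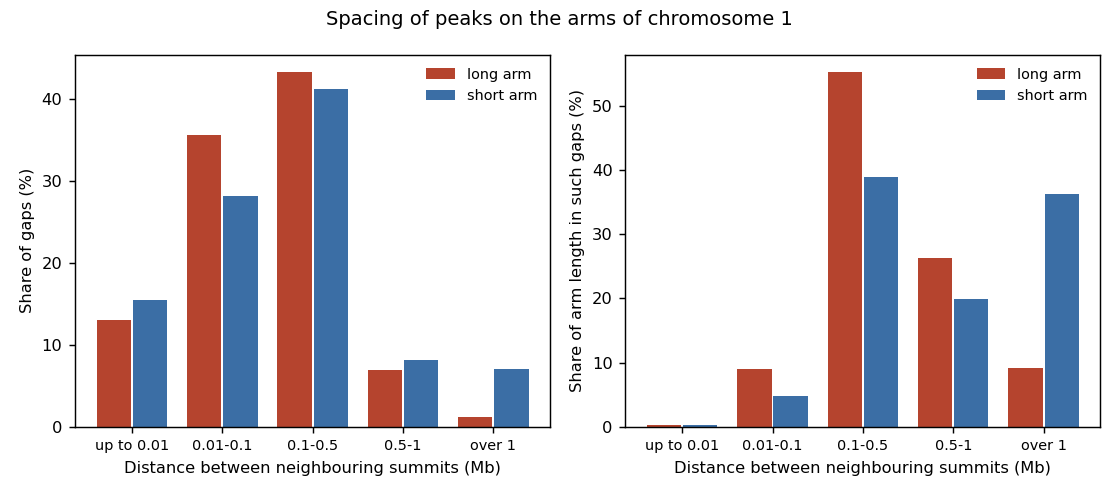
Distances between neighbouring summits on the long arm (red, 567 gaps) and the short arm (blue, 440 gaps), in 5 classes of distance in Mb; bars give the share of gaps (left) and the share of arm length they make up (right), in percent. Gaps over 1 Mb make up 9.18% of the long arm and 36.2% of the short arm.

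The density ratio was larger in the taller classes of peaks. Below a height of 20 the long arm had 1.19 peaks per Mb and the short arm 0.989, a ratio of 1.20 (0.94 to 1.55). At heights of 20 to 29 the ratio was 1.48 (1.23 to 1.78), and at 30 to 39 it was 1.51 (1.15 to 1.99). At 40 or more the long arm had 0.618 per Mb and the short arm 0.293, a ratio of 2.11 (1.40 to 3.17). Against the other chromosomes the ratios in these 4 classes were 1.30, 1.57, 1.86 and 2.15. The intervals of the lowest and the highest class overlapped in the comparison with the short arm (up to 1.55 and from 1.40). They did not overlap in that with the other chromosomes (up to 1.55 and from 1.67). No interval was computed for the change in ratio between classes, so the overlap does not show that the ratios were alike. Of the 65 long-arm peaks at 40 or more, 18 lay between 199 and 209 Mb, a block picked after its values were seen. The ratio of this class without that block was not computed.

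Heights of the long arm were somewhat greater by the mean, while the median differed by 1 at most. The median height was 25 (24 to 26) on the long arm, 24 (23 to 25) on the short arm and 24 (23 to 24) on the other chromosomes. The long-arm quartiles were 20 and 32, the extremes 11 and 77, and the mean 27.0 ± 10.1 (SD over 568 peaks). The median of the long arm was above that of the short arm by 1 (-0.41 to 2.41). The mean was higher by 1.26 (0.07 to 2.45) than on the short arm and by 1.32 (0.47 to 2.18) than on the other chromosomes. Peaks higher than 24, the median of the whole list, made up 52.8% of the long arm, against 45.5% of the whole list. This share exceeded that of the other chromosomes by 7.86 points (3.62 to 12.1) and that of the short arm by 5.42 points (-0.79 to 11.6). A height of 40 or more was reached by 65 long-arm peaks, or 11.4% (9.08 to 14.3), against 8.67% of the whole list. The short arm had 35 such peaks, or 7.94%, a difference of 3.51 points (-0.23 to 7.12). Against the 8.52% of the other chromosomes the difference was 2.93 points (0.49 to 5.87). A height of 60 was reached by 7 peaks of the long arm, or 1.23% (0.60 to 2.52), near the 0.937% of the whole list, and by 2 of the short arm, a difference of 0.78 points (-0.56 to 2.11). Among the 24 arms and chromosomes, the long arm ranked 4 in mean height and 3 in the share of peaks at 40 or more.

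Peaks of the long arm were wider when all peaks were compared, but on chromosome 1 not beyond counting error among the higher peaks. The median width was 651.5 bp (639 to 671), against 615 bp (600 to 634) on the short arm and 608 bp (605 to 612) on the other chromosomes. The long arm exceeded the short arm by 36.5 bp (13.8 to 61.1) and the other chromosomes by 43.5 bp (30.4 to 63.2). Chromosome 20, at 684 bp, and chromosome 19, at 677 bp, had wider medians. A width of 900 bp or more was found for 79 long-arm peaks, or 13.9% (11.3 to 17.0), against 8.45% of the whole list. The share was 9.30% on the short arm, a difference of 4.61 points (0.58 to 8.505), and 8.04% on the other chromosomes, a difference of 5.87 points (3.20 to 9.01). Among peaks higher than 24, the arms differed by 28 bp (-5.24 to 61.6) in median width and by 2.995 points (-3.07 to 8.64) in the share of 900 bp or more, and both intervals include 0.

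The density ratio to the short arm was 1.15 (0.85 to 1.55) for peaks under 500 bp and 1.31 (1.10 to 1.56) from 500 to under 700 bp. It was 1.84 (1.40 to 2.40) from 700 to under 900 bp and 2.19 (1.504 to 3.18) at 900 bp or more. Against the other chromosomes the widest class was 2.77 times as dense (2.19 to 3.49), and peaks under 500 bp 1.20 times (0.97 to 1.49). The ratios were thus smallest for narrow peaks and largest for wide ones. The intervals of these classes overlapped in the comparison with the short arm and did not overlap in that with the other chromosomes. Here too, no interval was computed for the change between classes, and overlap does not show that the ratios were alike.

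**Figure D3:**
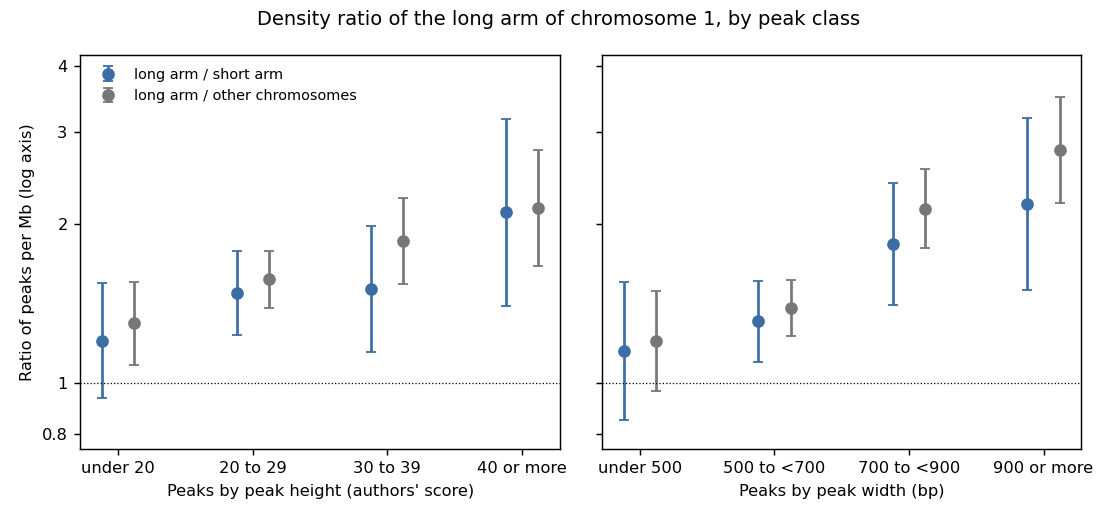
Ratio of peaks per Mb on the long arm to that on the short arm (blue) or on the other chromosomes (grey), by height class (left, authors' score) and width class (right, bp), on a log axis with 95% counting intervals; the dotted line marks equal density. The ratio to the short arm runs from 1.20 to 2.11 over the height classes and from 1.15 to 2.19 over the width classes.

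Width and height were only loosely related on the long arm, with Spearman's rho = 0.12 across its 568 peaks, which share 1 library. The greater width was also seen among low peaks. Among peaks lower than 20, the median width was 660 bp (634 to 692) on the long arm, 611 bp (582 to 647) on the short arm and 593 bp (587 to 599) elsewhere. At heights of 20 to 29 it was 609, 596 and 594 bp, and at 40 or more 725, 672 and 684 bp. At heights of 30 to 39 the order between the arms was the other way, with 662 bp (641 to 702) on the long arm and 690 bp (655 to 720) on the short arm. The separate intervals of the arms overlapped in each of the 4 classes. No interval of the difference within a class was computed, so this overlap does not show that the widths were alike. Of the 79 wide members, 13 had a height of 40 or more and 19 a height under 20.

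**Figure D4:**
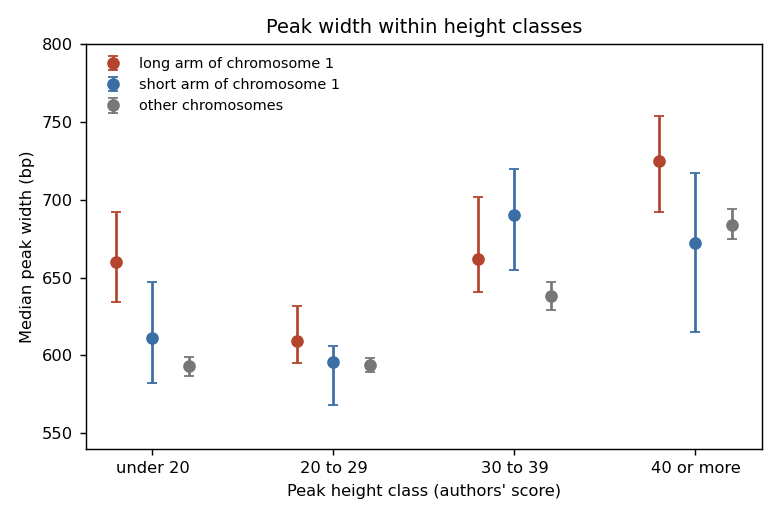
Median peak width in bp within 4 height classes (authors' score) for the long arm (red), the short arm (blue) and the other chromosomes (grey), with 95% intervals from order statistics; the width axis does not start at 0. In the lowest class the long arm is at 660 bp and the other chromosomes at 593 bp, while at 30 to 39 the short arm is highest, at 690 bp.

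Wide members had close company more often than the rest. A summit within 50 kb was found for 51 of the 79 members of 900 bp or more, or 64.6% (53.6 to 74.2), and for 50.5% (46.1 to 54.9) of the narrower ones. The difference was 14.05 points (2.20 to 24.7). Within 10 kb the shares were 34.2% (24.7 to 45.2) and 21.1% (17.7 to 24.9), a difference of 13.1 points (2.86 to 24.6). On the short arm the difference within 10 kb was 21.8 points (6.88 to 37.3), and within 50 kb it was 7.79 points (-8.15 to 22.3). Tall members did not differ from the others in this respect beyond counting error, but they were few. A summit within 50 kb was found for 55.4% (43.3 to 66.8) of the 65 members of height 40 or more. For the lower ones it was 52.1% (47.7 to 56.4), a difference of 3.30 points (-9.51 to 15.5). Within 10 kb the difference was -3.26 points (-12.1 to 8.54). For tall peaks of the short arm the differences were 6.16 points (-10.8 to 21.8) within 50 kb and -7.09 points (-18.0 to 9.32) within 10 kb. On the other chromosomes, the shares within 50 kb were 55.3% (51.7 to 58.9) of tall and 46.5% (45.4 to 47.6) of lower peaks. Within 10 kb they were 24.1% (21.1 to 27.4) and 18.5% (17.6 to 19.4). The intervals of the long arm are wide and do not exclude such differences.

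The tallest member was also the seventh tallest peak of the whole list. It ran from 144989173 to 144990099, was 927 bp wide and reached 77. The second, from 183062809 to 183063648, had a height of 72 and a neighbouring summit 7.10 kb away. The third, from 247578560 to 247579739, had a height of 71 and lay near the end of the arm, with no other summit within 154 kb. The fourth, from 205270302 to 205270973, had a height of 67, and a summit of height 44 lay 2.91 kb from it. Places 5 and 6 were close to the tallest peak: 145113471 to 145115477 had a height of 63, and 144941055 to 144941754 a height of 62. The peak from 151519444 to 151520221 had a height of 61. The tallest members were thus spread over the length of the arm, with 3 of the 7 at 60 or more close to its lower end.

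Heights from 55 to 58 belonged to 5 further members. These were the peaks from 234907933 to 234908585 (58), from 155162808 to 155164056 (56), and from 193180459 to 193181161, 206671810 to 206672542 and 214390017 to 214390714 (55 each). A height of 52 was found from 152827932 to 152828575, from 165867935 to 165868592 and from 173393630 to 173394493. The peak from 205641036 to 205641716 had a height of 51. The last 4 of the 20 tallest had a height of 49 and lay from 159815501 to 159815984, from 175237083 to 175238863, from 204164284 to 204165380 and from 210438748 to 210439501. Of these 20 peaks, 7 were in a group of close peaks and 6 were at least 900 bp wide.

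The widest member was the peak of height 63 from 145113471 to 145115477, at 2007 bp, which was eighth in width in the whole list. Next came 175237083 to 175238863, at 1781 bp and a height of 49, and 161050003 to 161051743, at 1741 bp and a height of 38. The next pair, 218652882 to 218654592 at 1711 bp and 224200626 to 224202304 at 1679 bp, both had a height of 25. The 5 widest members thus ran from the median height of the arm to its tall end.

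The first members of the arm were tall. The 9 peaks from 144008108 to 145115477 had heights of 25, 14, 37, 62, 77, 35, 23, 35 and 63 in their order along the chromosome, with a median of 35 against 25 for the other 559. After them came the gap of 1.23 Mb. The next 7 peaks, up to 150 Mb, had a median height of 27. This block was singled out after its values were seen. Whether reads could be placed uniquely there was not analysed.

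Farther along, tall peaks were concentrated between 199 and 209 Mb, a block that was also singled out after its values were seen. Its 72 peaks included 18 of height 40 or more, or 25% (16.4 to 36.1). It held 27.7% of the tall members and 12.7% of all members. Without it, 47 of 496 long-arm peaks, or 9.48%, reached 40; since the block was picked for its tall peaks, a lower share was bound to follow. The window just before it, from 194 to 199 Mb, had 22 peaks and 0 of height 40 or more. Its heights ran from 11 to 32 with a median of 21, the lowest median of the 21 windows. The window from 224 to 229 Mb also had 0 tall peaks, among 23, yet the highest median width of all windows, 748 bp.

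Cut into 3 parts of equal length the arm varied less in number of peaks and in median height. Longer parts average over more peaks, so less variation was to be had by construction. The lower, middle and upper part held 187, 199 and 182 peaks. Their median heights were 26, 25 and 25. The share at height 40 or more was 13.4% (9.22 to 18.99), 13.6% (9.49 to 19.02) and 7.14% (4.22 to 11.8). The interval of the upper part overlapped the others. No interval of the difference between parts was computed, so this overlap does not show that the shares were alike.

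The single megabases with most peaks were unlike each other in height. From 172 to 173 Mb there were 17 peaks of heights 12 to 37, with a median of 30 and 0 at 40 or more. From 214 to 215 Mb there were 14, with a median of 27.5, which included peaks of height 55 and, from 214724866 to 214726113, 46. From 218 to 219 Mb there were also 14, with a median of 25 and a tallest peak of 42. The 13 peaks from 204 to 205 Mb had a median of 34, and 5 of them reached 40: 49, 43, 40, 42 and 47 in order. The 12 peaks of 159 to 160 Mb had a median of 25.5 and heights up to 49; the megabases that start at 183 and 240 Mb had as many peaks, with medians of 34 and 24.5. A full megabase was therefore not always a tall one.

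Close peaks were joined into groups where their intervals lay at most 12500 bp apart. On the long arm 156 peaks, or 27.5% (24.0 to 31.3), fell into 66 groups of at least 2, against 23.1% of peaks in the whole list. The short arm had 29.7%, a difference of -2.24 points (-7.89 to 3.34), and the other chromosomes 22.5%, a difference of 5.01 points (1.38 to 8.92). As with near neighbours, these shares were not corrected for density. The 66 groups were 48 pairs, 15 groups of 3 and 3 larger ones. Groups of 4 or more held 15 long-arm peaks (2.64%) and 21 short-arm peaks (4.76%), a difference of -2.12 points (-4.74 to 0.21), against 1.84% of the whole list. The mean height was 27.6 ± 10.8 in the 156 grouped members (SD over peaks) against 26.8 ± 9.83 in the other 412, a difference of 0.76 (-1.18 to 2.71). The same difference was 0.26 (-1.48 to 1.99) on the short arm and 1.25 (0.72 to 1.77) on the other chromosomes.

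The largest group held 7 peaks within 25.7 kb, from 228716985 to 228742635. Their heights were 21, 22, 24, 20, 20, 25 and 12, so none exceeded the median of the arm. Their widths ran from 745 to 1597 bp, and the first pair of intervals was 25 bp apart, the closest on the arm. The second group held 4 peaks from 145092261 to 145115477, with heights of 35, 23, 35 and 63. The third held 4 peaks within 7.01 kb, from 178061020 to 178068025, with heights of 25, 17, 33 and 17. The fourth, from 205263399 to 205270973, held 3 peaks whose heights were 16, 44 and 67, the last being the fourth tallest of the arm. The fifth, from 144931724 to 144941754, had heights of 14, 37 and 62. Groups thus ranged from rows of low, wide peaks to a single tall peak with lower ones beside it.

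**Figure D5:**
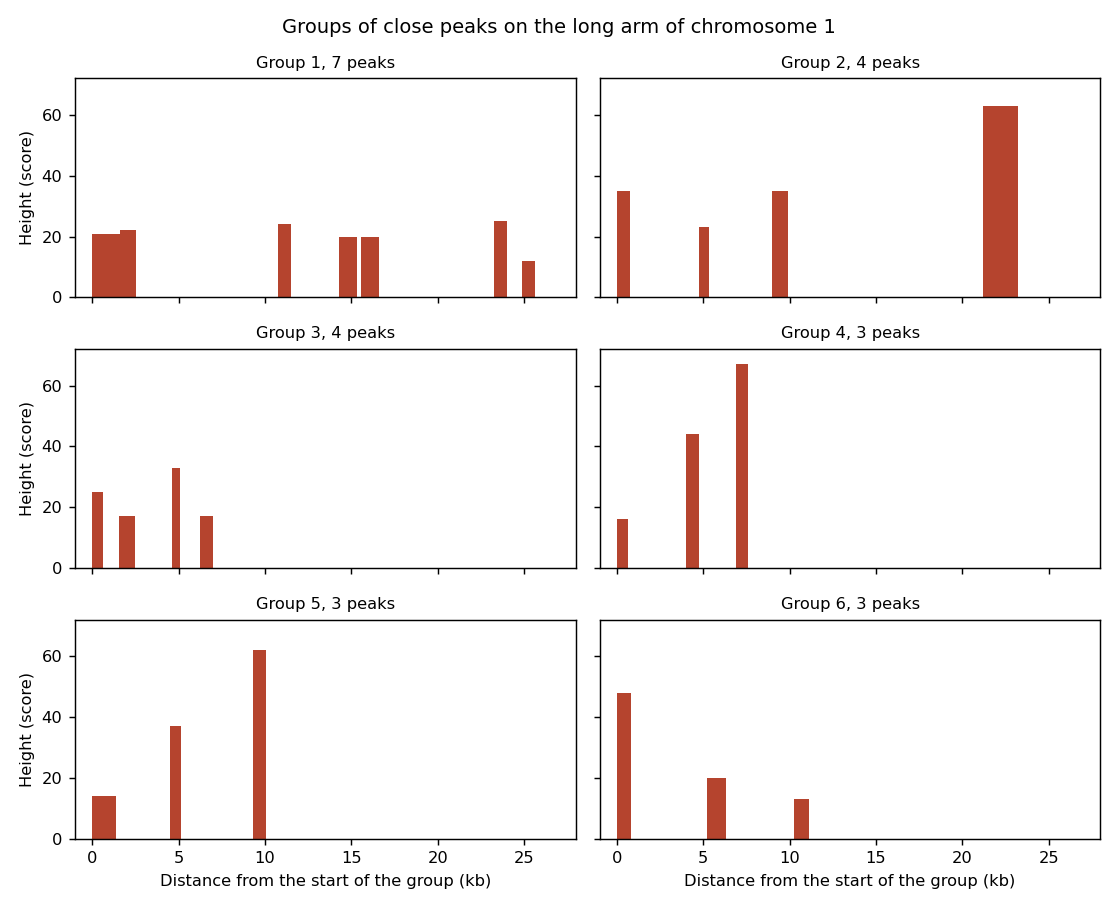
The 5 groups described in the text and the next one, of 3 peaks with heights 48, 20 and 13; each bar spans the interval of a peak, in kb from the start of the group, and its height is the authors' score. Group 1 has 7 peaks between 12 and 25 in height, while groups 2, 4 and 5 each contain a peak above 60.

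Heights of neighbouring peaks on the long arm were at most weakly correlated. Pearson's correlation of log2 height was 0.06 over 74 neighbouring pairs at most 10 kb apart, 0.14 over 114 pairs up to 50 kb, -0.05 over 197 pairs up to 200 kb and 0.01 over 182 pairs farther apart. The same 4 values on the short arm were -0.01, -0.19, -0.04 and -0.06. These correlations describe pairs of peaks that share 1 library and, in part, a peak.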

How the data were processed

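The series holds 1 ChIP library and 1 input library of MCF10A cells, and the ChIP library has 1 peak list. Per the submitters' processing notes, BWA 0.6.1 and MACS were used with hg19. How MACS was run, and whether with the input, is not given in the sources used here. The deposited file, per the file headers, has a summit track, with the authors' score (a whole number, called height here), and an interval track. The tracks were joined by line order; every summit lay inside its interval. Summits lay on multiples of 16 bp for 99.3% of peaks. Starts are 1-based.

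Each side was measured between its outermost summits, without gaps over 5 Mb. Shares have Wilson intervals. Intervals of medians come from order statistics, those of mean heights from a normal approximation, and those of differences combine both sides by Newcombe's method. Ratio intervals come from the Wilson interval of the share on the long arm. The intervals of density ratios and of median differences were tested on simulated data with independently drawn peaks. That test does not show that the intervals hold for the unevenly spaced peaks of this list. The named peaks are the 20 tallest and 5 widest; groups, windows and gaps are the 5 most extreme, with ties. The members, lists and measures were chosen with earlier results of these data known. Gene starts, TEAD motifs and gene lists were planned but need an hg19 annotation or genome, which was not used here. The gene names and their order are from RefSeq for GRCh38. The software was scipy 1.17.1, pandas 2.3.3, numpy 2.4.6 and matplotlib 3.10.9 under Python 3.11.15. Alternatives are in the closing section.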

Additional observations from a re-analysis of the deposited data

How the results depend on the processing

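No paired analysis was possible because each group has 1 library and the labels give no replicate numbers. Alternatives were peaks higher than the list's median of 24, merging of intervals under 200 bp apart, other limits and lengths, and regions left out. Those on gaps over 1 Mb, on peaks of 900 bp or more, and without the first 9 members or 199 to 209 Mb were chosen after seeing the data. Of 52 alternative values for 8 results, 50 lay inside the interval of the reported value. Some of them could hardly leave it, so this count is a weak check. Neither arm had a gap over 5 Mb within it, so the full length gave the same density ratio. Merging left 564 long-arm and 436 short-arm peaks, nearly the same data. Values that changed sign also count as inside. The share of gaps over 1 Mb differed between the long and short arm by -12.2 points for the higher peaks, of which there are fewer, and by -0.73 points (-2.14 to 0.25) for gaps over 2 Mb, against -5.81 points. The density ratio stayed between 1.41 and 1.63. The width difference was 28 bp (-5.24 to 61.6) and that in wide peaks 2.995 points (-3.07 to 8.64) for the higher peaks, so these intervals then included 0. The difference in the share at height 40 or more fell from 3.51 to 2.04 points without 204 to 209 Mb and to 1.54 points without 199 to 209 Mb, blocks that hold many tall peaks. The difference in peaks with a neighbour within 50 kb, 0.99 points, changed sign without 204 to 209 Mb (-0.81) and without 199 to 209 Mb (-1.07). Those for gene starts and TEAD motifs were not run. The values rest on 1 library of unknown depth.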
